A study of Mus musculus with 16 samples.

Results

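Spp1, Chi3l3 (now named Chil3), Ptx3, C1qa and C3ar1 are 5 of the 584 genes, read by 7 of the 648 assays, of a quantitative PCR panel for inflammation genes that was run on mouse colonic mucosa. They were taken by gene name as the panel's macrophage products and complement genes, and were chosen by their levels and group differences in these same 16 samples. Their group differences are therefore given as descriptions, with no test. All 5 were matched to RefSeq by symbol.

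The study set 4 groups of 4 samples side by side. The DNBS group was given dinitrobenzene sulfonic acid (DNBS) into the rectum, where this hapten provokes colitis, and phosphate-buffered saline (PBS) by mouth. The DNBS_CEC group received DNBS and oral CEC, an abbreviation that the labels do not spell out, and the DNBS_Nissle group received DNBS and oral Nissle, which the labels name with no species; Nissle is also the name of a probiotic strain of Escherichia coli. The Healthy group received PBS by both routes, so that all 4 groups share a rectal and an oral dose of some kind. Strain, age, doses and times are not given in the sources used here. The series description says that RNA of the mice was pooled in equal amounts, while each sample carries a number of its own, so whether a sample is a mouse or a pool is not settled, and errors measure only the spread between these samples.

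The values are raw threshold cycles (Ct), the PCR cycle at which a product is first seen, so that 1 cycle less means about double the template. A level below is the mean Ct of 13 endogenous control genes minus the Ct of the gene, on a log2 scale, and higher means more transcript. Values beyond Ct 28 were treated as undetected. A sample had 528 to 564 detected assays, and the mean Ct of the control genes lay between 18.7 and 20.1. In Healthy 3 and DNBS_Nissle 1, 57 and 61 values are exactly the average of the 3 fellow samples, out of 194 such values in the table, but none of them belongs to the 5 genes. In bulk tissue, fewer cells of a type and less RNA per cell cannot be told apart.

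Macrophages are the most numerous phagocytes of the healthy colon wall, and injury draws in monocytes and neutrophils beside them. Spp1 encodes osteopontin, a secreted phosphoprotein that binds integrins and CD44 and is made by activated macrophages, T cells and epithelium. Chi3l3 encodes Ym1, a secreted chitinase-like lectin that has no enzymatic activity, a mouse marker of alternatively activated macrophages that neutrophils also make. Ptx3 encodes a long pentraxin, a soluble pattern recognition molecule released by macrophages, dendritic cells, endothelium and neutrophils, whose transcription is switched on by interleukin 1 and tumour necrosis factor. C1qa encodes 1 of the 3 chains of C1q, which starts the classical complement pathway and is made largely by tissue macrophages. C3ar1 encodes the receptor for C3a, the small fragment released when complement component C3 is cleaved.

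The stretches of 250 bases before the start sites of 4 of these genes are shown because the genes fall into a pair of patterns, with Spp1, Chi3l3 and Ptx3 spread widely across samples and C1qa and C3ar1 close to level. The sequences are from RefSeq on GRCm38.p6, on the strand of the gene and ending at the base before the annotated start, with motif matches in capitals. C1qa is named only.
Spp1 (chr5:104434861-104435110, plus strand): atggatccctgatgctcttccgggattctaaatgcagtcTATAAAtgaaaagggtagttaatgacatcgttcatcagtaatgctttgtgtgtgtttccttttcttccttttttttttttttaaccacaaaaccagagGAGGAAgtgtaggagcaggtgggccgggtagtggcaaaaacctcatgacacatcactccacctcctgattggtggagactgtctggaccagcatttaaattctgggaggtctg
Chil3 (chr3:106167565-106167814, minus strand): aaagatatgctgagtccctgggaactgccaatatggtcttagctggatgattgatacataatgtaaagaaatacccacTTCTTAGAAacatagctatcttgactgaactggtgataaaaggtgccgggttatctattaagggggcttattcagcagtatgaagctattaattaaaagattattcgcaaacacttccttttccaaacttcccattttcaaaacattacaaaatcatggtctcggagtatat
Ptx3 (chr3:66219637-66219886, plus strand): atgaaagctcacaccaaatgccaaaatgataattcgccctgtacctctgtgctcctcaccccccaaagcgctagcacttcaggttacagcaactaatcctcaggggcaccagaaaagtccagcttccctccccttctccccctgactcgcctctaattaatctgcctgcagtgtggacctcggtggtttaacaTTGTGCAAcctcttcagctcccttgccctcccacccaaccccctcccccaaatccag
C3ar1 (chr6:122856158-122856407, minus strand): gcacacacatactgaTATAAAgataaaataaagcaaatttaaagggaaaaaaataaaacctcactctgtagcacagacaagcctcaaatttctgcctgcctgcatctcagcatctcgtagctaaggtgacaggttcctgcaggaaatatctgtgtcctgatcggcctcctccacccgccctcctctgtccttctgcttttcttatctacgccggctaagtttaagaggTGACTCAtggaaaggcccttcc

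The search took both strands. The letters of the TATA box were TATAAA. Those of the core site of PU.1, a factor of the myeloid lineage, were GAGGAA. AP-1 was searched as TGANTCA, C/EBP as TTGNNCAA and STAT as TTCNNNGAA, and NF-kB by its consensus. No 2 of the matches shown overlap. Spp1 held the TATA box letters at 211 to 206 bases and the PU.1 core at 113 to 108 bases before its start. Chil3 held the STAT letters at 172 to 164 bases, and Ptx3 the C/EBP letters at 57 to 50 bases before the start. C3ar1 held the TATA box letters at 235 to 230 bases and the AP-1 letters at 22 to 16 bases. All are common: of 32851 mouse promoter windows, 12.4% held the TATA box letters, 23.3% the PU.1 core, 6.75% AP-1, 5.65% C/EBP, 7.02% STAT and 3.9% the NF-kB consensus. No match to the NF-kB consensus was found in the 4 windows, which says nothing about the factor. No motif was shared by the 3 genes that varied widely.

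The 5 genes differed first in how much they varied between samples. The SD within groups was 2.51 for Chi3l3, 2.39 for Ptx3 and 1.32 for Spp1 on the log2 scale, larger than that of 99.8%, 99.5% and 95.9% of the 412 genes detected in all samples. It was 0.50 for C1qa and 0.59 for C3ar1, below the median of 0.64 over those 412 genes. The C3ar1 value is for the mean of 2 assays. Alone, Mm01184110_m1 gave 0.53, while Mm02620006_s1 gave 0.83, larger than that of 68.9% of those genes. From the lowest to the highest of the 16 samples the level spanned 11.3 for Chi3l3, 9.31 for Ptx3 and 6.27 for Spp1, against 2.41 for C1qa and 2.50 for C3ar1. The values of Chi3l3 and Ptx3 include a measured Ct above 28 in 1 and in 7 samples. The 412 genes hold no such value by the way they were chosen, so the percentages for Chi3l3 and Ptx3 compare unlike sets.

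**Figure D1:**
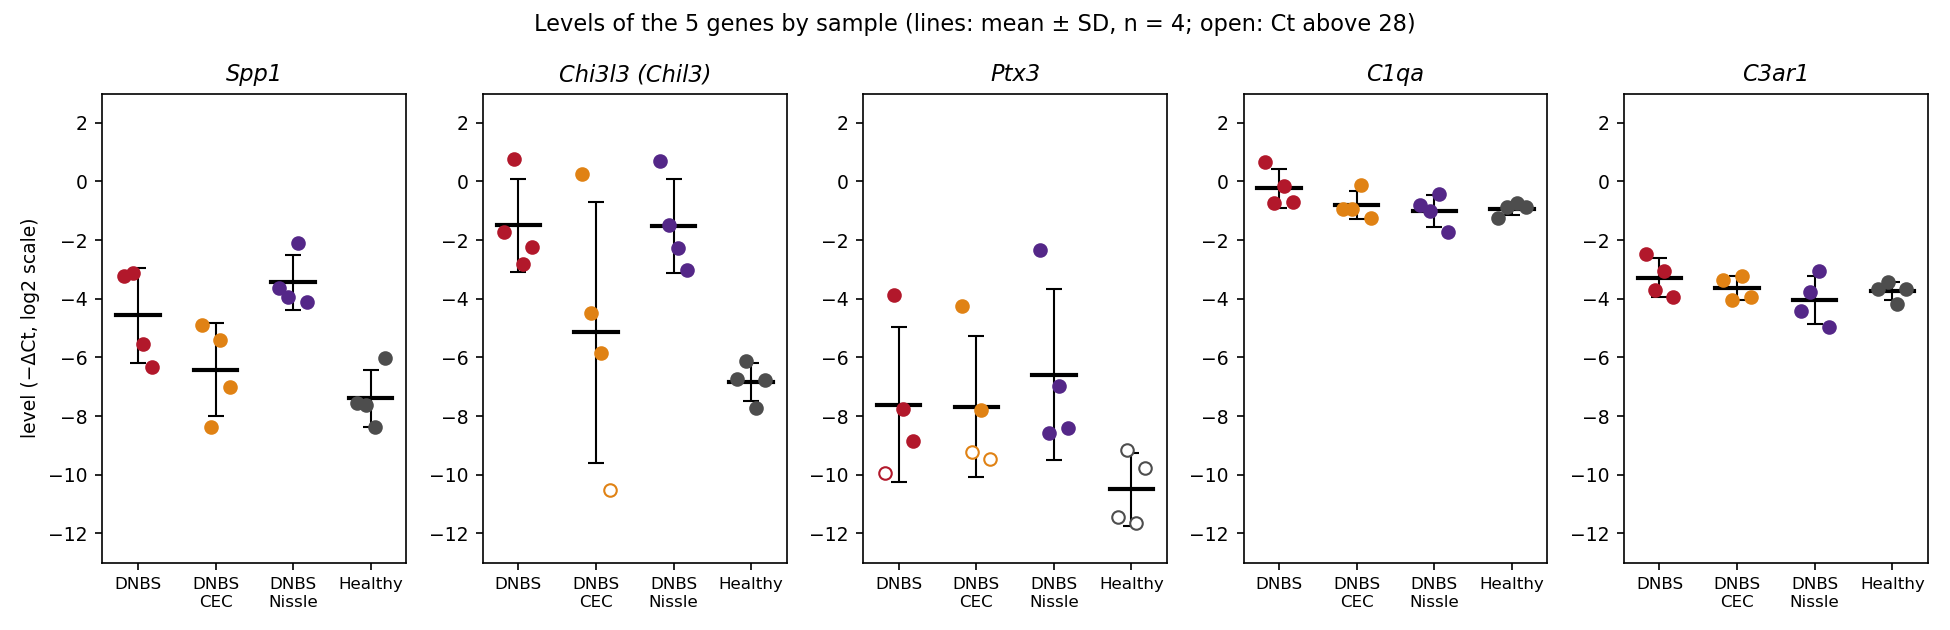
Level of each gene (mean Ct of 13 control genes minus the gene's Ct, log2 scale) in every sample, with points for samples, open points for a Ct above 28, and lines for the mean ± SD of 4 samples. Spp1, Chi3l3 and Ptx3 spread over 6.27 to 11.3 units, while C1qa and C3ar1 lie within 2.50.

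Osteopontin transcripts (Spp1) were lowest in healthy mucosa and highest under DNBS with Nissle. Its levels were -3.23, -3.13, -5.54 and -6.34 in DNBS samples, -4.89, -8.36, -5.39 and -7.02 in DNBS_CEC samples and -3.65, -3.95, -2.08 and -4.10 in DNBS_Nissle samples, against -7.56, -7.63, -8.36 and -6.03 in Healthy samples. All 4 DNBS_Nissle samples lay above every Healthy sample, 3 of the 4 DNBS samples did, and the DNBS_CEC samples overlapped the Healthy ones. The group means were -3.44 ± 0.93 in DNBS_Nissle, -4.56 ± 1.63 in DNBS, -6.41 ± 1.58 in DNBS_CEC and -7.39 ± 0.98 in Healthy (SD, n = 4 each).

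In the fit across all genes, the Spp1 level was 3.95 ± 0.83 (SE) higher in DNBS_Nissle than in Healthy, 15.5-fold. It was 2.83 ± 0.83 higher in DNBS, 7.13-fold, and 0.98 ± 0.83 higher in DNBS_CEC, 1.98-fold. The DNBS difference was 2.36 without DNBS 3 and 3.43 without DNBS 5. That of DNBS_CEC was 0.47 without DNBS_CEC 1 and 1.63 without DNBS_CEC 2. Neighbours in this order overlapped, with DNBS_Nissle minus DNBS at 1.12 ± 0.84 and DNBS_CEC minus DNBS at -1.85 ± 0.84. These became 0.53 and -2.44 without DNBS 5, and DNBS_CEC minus DNBS was -1.20 without DNBS_CEC 2. The groups given the 2 oral agents did not overlap: every DNBS_CEC sample was below every DNBS_Nissle sample, with a difference of -2.97 ± 0.84, 7.83-fold lower in DNBS_CEC, which became -2.32 without DNBS_CEC 2. No overlap in either direction was found for 9 of 471 genes, 1.91%, between DNBS_CEC and DNBS_Nissle. It was found for 0.633% of 474 genes between DNBS_CEC and DNBS and for 1.05% of 474 genes between DNBS_Nissle and DNBS, with none of the 5 genes in these counts. The receptors and proteases of osteopontin were thin on the panel. Of those tested, Cd44, the hyaluronan receptor that also binds osteopontin, and Itgb6, an integrin chain of epithelium, were both numerically higher in the 3 comparisons with Healthy and did not pass the test in any. In DNBS_CEC 1 of them was lower without the unstable control genes, with Gapdh alone or under quantile normalization, as was 1 in DNBS_Nissle under quantile normalization.

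Ym1 transcripts (Chi3l3) showed the largest distance from healthy mucosa among the 5 genes where both groups were detected. Its levels were -1.71, 0.78, -2.81 and -2.24 in DNBS samples, 0.27, -4.49, -5.86 and -10.51 in DNBS_CEC samples and 0.71, -1.47, -2.26 and -3.02 in DNBS_Nissle samples, against -6.72, -6.14, -7.72 and -6.77 in Healthy samples. Every DNBS and every DNBS_Nissle sample was above every Healthy sample. The DNBS_CEC samples ran from the third highest to the lowest of all 16, the lowest being DNBS_CEC 8, whose Ct was above 28.

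The Chi3l3 means were -1.49 ± 1.58 in DNBS and -1.51 ± 1.61 in DNBS_Nissle, against -6.84 ± 0.65 in Healthy (SD, n = 4 each). The level was 5.34 ± 1.13 (SE) higher in DNBS than in Healthy, 40.5-fold, and 5.33 ± 1.13 higher in DNBS_Nissle, 40.1-fold. Without DNBS 3 the DNBS difference was 4.58, and without DNBS_Nissle 1 the DNBS_Nissle difference was 4.59. DNBS_Nissle and DNBS differed by -0.01 ± 1.14. In DNBS_CEC the fit leaves out the sample that was not detected and gives 3.47 ± 1.22 above Healthy, 11.1-fold, from the 3 others. With the measured value of that sample kept, the mean of DNBS_CEC was -5.15 ± 4.43 and its distance from Healthy 1.69 ± 1.58, 3.22-fold. Without DNBS_CEC 1, the highest sample of that group, the fit gave 1.66. Against DNBS, the DNBS_CEC level was -1.87 ± 1.23 in the fit and -3.65 ± 1.60 with all 4 samples.

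Chi3l3 has a close paralog. The RefSeq windows of 300 bases around the starts of Chil3 and Chil4 were identical at 251 of 271 aligned bases, 92.6%. Most of each window, 250 bases, lies before the start, so this does not show how alike the transcripts are. The supplier's suffix of the Chi3l3 assay marks a gene of high sequence homology, so transcripts of Chil4 may contribute to this signal. Of the other genes listed for alternative activation, 10 were tested in DNBS against Healthy, 6 were numerically higher and 4 lower, none passed, and their median was 0.05 beside 0.12 over all 457 genes tested; on the global mean scale 2 were numerically higher and 8 lower. In DNBS_Nissle against Healthy 4 were numerically higher and 6 lower, with a median of -0.10 beside -0.09 over all genes tested, or 8 higher and 2 lower with Gapdh alone. Il4, Il13 and Il10, cytokines linked to this macrophage state, were not detected in any sample. Mrc1, the mannose receptor of such macrophages, was 0.09 ± 0.43 higher in DNBS than in Healthy (limma, adjusted p = 0.964).

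The long pentraxin (Ptx3) was detected in no Healthy sample and in 9 of the 12 samples given DNBS. Its Ct with the assay Mm00477268_m1 was 29.56, 22.88, 27.60 and 27.84 in DNBS samples, 23.51, 28.45, 27.51 and 28.45 in DNBS_CEC samples and 21.31, 27.45, 26.75 and 27.10 in DNBS_Nissle samples, against 31.54, 28.48, 31.00 and 29.30 in Healthy samples. By this assay DNBS 3, DNBS_CEC 1 and DNBS_Nissle 1 each stood well above the rest of their group. The same 3 samples held the 3 highest Chi3l3 levels, 0.78, 0.27 and 0.71.

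As levels, Ptx3 stood at -9.95, -3.88, -7.75 and -8.85 in DNBS samples, -4.24, -9.23, -7.79 and -9.45 in DNBS_CEC samples and -2.35, -8.59, -6.99 and -8.41 in DNBS_Nissle samples, against -11.43, -9.15, -11.66 and -9.77 in Healthy samples, the Healthy values all from a Ct above 28. By this assay, Mm00477268_m1, all 4 DNBS_Nissle samples were above every Healthy sample, while the DNBS and DNBS_CEC samples overlapped the Healthy ones. Taken as measured, the means were 2.89 above Healthy in DNBS, 2.82 in DNBS_CEC and 3.92 in DNBS_Nissle. Without its highest sample the distance was 1.65 in DNBS, 1.68 in DNBS_CEC and 2.51 in DNBS_Nissle. Set against the detection limit in healthy mucosa, Ptx3 was at least 1.76-fold higher in DNBS, 1.67-fold in DNBS_CEC and 3.57-fold in DNBS_Nissle. These bounds use the measured Ct of every sample of the groups given DNBS, of which 3, 2 and 4 were detected in DNBS, DNBS_CEC and DNBS_Nissle. They rest on the highest sample of each group, as a check chosen after seeing the data showed. Without DNBS 3 the DNBS mean was -8.85 and without DNBS_CEC 1 the DNBS_CEC mean was -8.82, both below the limit of -8.42, so that no bound was left, and without DNBS_Nissle 1 the bound was 1.34-fold.

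The second Ptx3 assay, Mm00477267_g1, was detected in 2 DNBS, 2 DNBS_CEC, 4 DNBS_Nissle and 0 Healthy samples. It gave -7.21, -3.99, -9.49 and -9.70 in DNBS samples, -3.84, -9.36, -8.90 and -8.80 in DNBS_CEC samples and -2.03, -8.29, -7.24 and -8.02 in DNBS_Nissle samples, against -19.88, -10.80, -20.66 and -12.44 in Healthy samples, of which 2 did not amplify within 40 cycles. The same 3 samples were again the highest. Across the 16 samples the 2 assays correlated at Pearson r = 0.84 and Spearman rho = 0.73, and in the 6 samples where both were detected at r = 0.99. They disagreed on detection in 5 samples. DNBS 4, DNBS 5 and DNBS_CEC 6 were detected with Mm00477268_m1 alone, and DNBS 2 and DNBS_CEC 8 with Mm00477267_g1 alone.

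**Figure D2:**
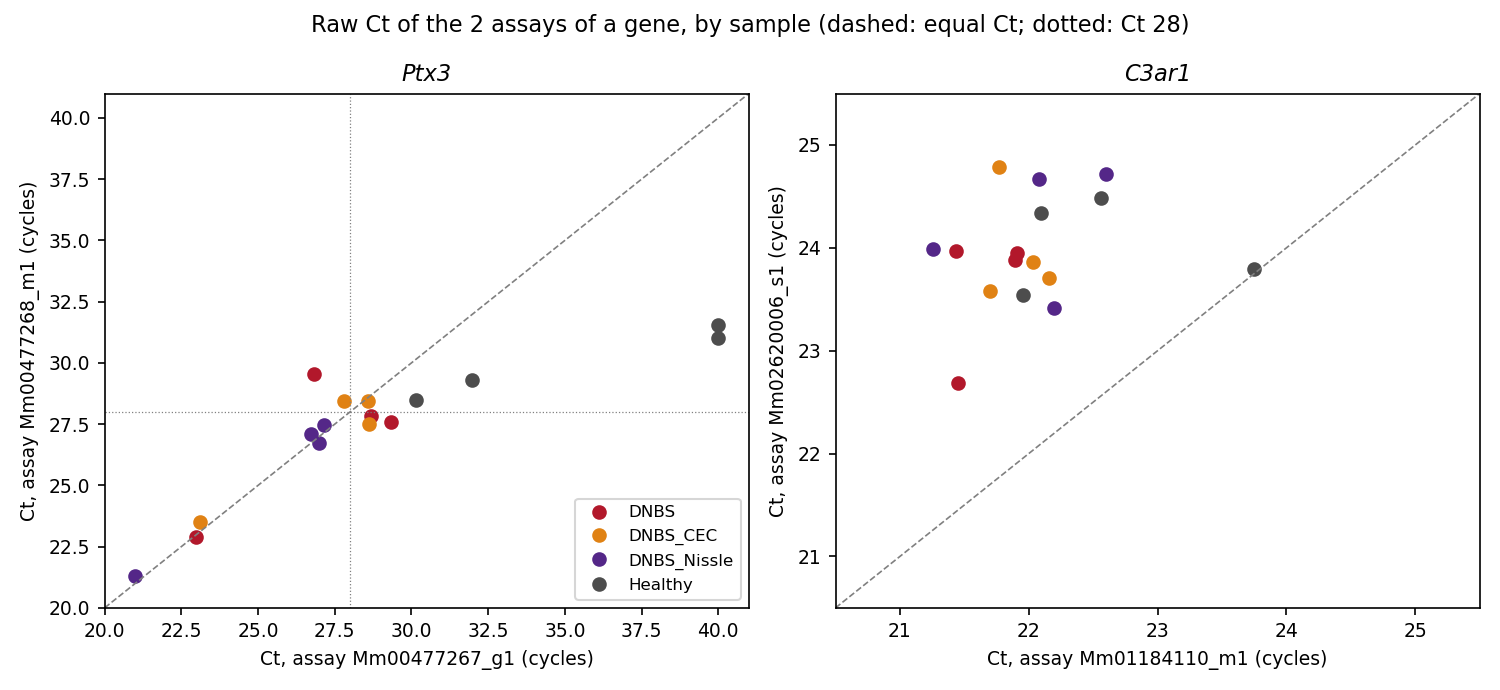
Raw Ct (cycles) of the 2 assays of Ptx3 (left) and of C3ar1 (right) in the 16 samples, coloured by group, with a dashed line of equal Ct and dotted lines at Ct 28. The Ptx3 assays place the same 3 samples at the lowest Ct, while the C3ar1 assays differ by a median of 1.96 cycles and order the samples differently.

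Of the other pentraxins, Apcs, which encodes serum amyloid P, was not detected and Crp, which encodes C-reactive protein, was detected in 1 sample, from the DNBS_Nissle group. Among the inducers and partners of Ptx3, 13 genes were tested in DNBS against Healthy, and all 13 were numerically higher, with a median of 0.50 beside 0.12 over all genes tested, but none passed. Under a global mean scaling 10 were numerically higher and 3 lower. Tnf was 1.74 ± 0.77 higher (adjusted p = 0.42, limma) and Il1b 3.71 ± 1.02 higher (adjusted p = 0.107, limma). In DNBS_Nissle against Healthy 2 of these 13 passed. Il1b, the inflammasome cytokine, rose by 4.76 ± 1.02 and Selp, the adhesion molecule P-selectin to which PTX3 protein binds, rose by 3.26 ± 0.71 (both at limma's adjusted p = 0.0175). Neither passed without Healthy 3 and DNBS_Nissle 1, the samples with most filled-in values. In DNBS_CEC against Healthy none of the 13 passed, with Il1b at 1.87 ± 1.02 and Selp at 1.06 ± 0.70.

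The C1q chain gene C1qa was near level across the groups. It measured 0.67, -0.75, -0.17 and -0.71 in DNBS samples, -0.93, -0.95, -0.13 and -1.23 in DNBS_CEC samples and -0.79, -1.01, -0.44 and -1.74 in DNBS_Nissle samples, against -1.25, -0.85, -0.73 and -0.89 in Healthy samples. Of the DNBS samples, 3 lay above every Healthy sample and the other just below the highest of them, while the DNBS_Nissle samples spanned the Healthy range and the DNBS_CEC samples overlapped it and reached above it. The means were -0.24 ± 0.66 in DNBS, -0.81 ± 0.47 in DNBS_CEC, -0.99 ± 0.55 in DNBS_Nissle and -0.93 ± 0.22 in Healthy (SD, n = 4 each).

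In the fit, C1qa was 0.69 ± 0.38 (SE) higher in DNBS than in Healthy, 1.62-fold, which became 0.39 without DNBS 2. It differed from Healthy by 0.12 ± 0.38 in DNBS_CEC and by -0.06 ± 0.38 in DNBS_Nissle, and the sign of both differences turned under some settings. Against DNBS it was -0.57 ± 0.38 in DNBS_CEC and -0.76 ± 0.38 in DNBS_Nissle. The partner chains gave C1qb 0.80 ± 0.57 and C1qc 0.16 ± 0.38 higher in DNBS than in Healthy. C1qb was 0.31, -0.73, -0.70 and -0.01 in DNBS samples, against -0.99, -1.08, -0.76 and -1.51 in Healthy samples, which do not overlap. C1qc was -0.74, -1.10, -0.90 and -1.09 in DNBS samples, against -1.71, -0.81, -1.44 and -0.50 in Healthy samples, which do. C1q contains equal numbers of the 3 chains, and across the 16 samples C1qa correlated with C1qb at r = 0.61 and with C1qc at r = 0.47, while C1qb and C1qc correlated at r = -0.09.

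The C3a receptor gene C3ar1, taken as the mean of its 2 assays, was also near level. It measured -2.46, -3.70, -3.04 and -3.93 in DNBS samples, -3.37, -4.06, -3.23 and -3.93 in DNBS_CEC samples and -4.41, -3.76, -3.05 and -4.97 in DNBS_Nissle samples, against -3.66, -3.42, -4.18 and -3.68 in Healthy samples. Every group overlapped every other, and 2 DNBS samples lay above all Healthy samples. The difference from Healthy was 0.45 ± 0.42 (SE) in DNBS, 0.09 ± 0.42 in DNBS_CEC and -0.31 ± 0.42 in DNBS_Nissle.

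The C3ar1 value depends on the assay. Between the assays Mm01184110_m1 and Mm02620006_s1 the second read a median of 1.96 cycles later, with a range of 0.047 to 3.02, and they correlated at only r = 0.51 across the 16 samples. The first put C3ar1 at 0.70 above Healthy in DNBS, 0.40 in DNBS_CEC and 0.04 in DNBS_Nissle. The second put it at 0.20 in DNBS, -0.22 in DNBS_CEC and -0.67 in DNBS_Nissle. The order of the 3 groups given DNBS was the same with both, while Healthy was lowest with the first and not with the second. The sign differed in both groups with an oral agent.

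**Figure D3:**
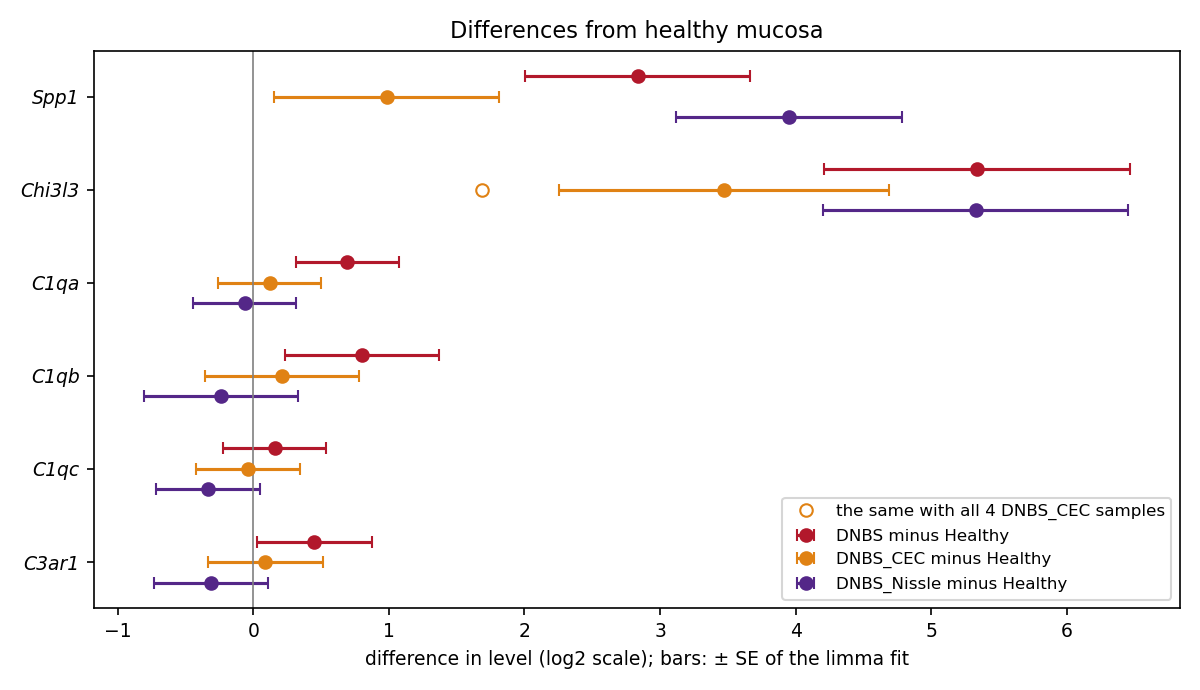
Difference in level from Healthy (log2 scale, horizontal axis) of each gene that could be fitted, with the C1qa partner chains C1qb and C1qc, for DNBS, DNBS_CEC and DNBS_Nissle, with bars for ± SE of the fit. The Spp1 and Chi3l3 points lie between 0.98 and 5.34, the C1q chains and C3ar1 between -0.33 and 0.80, and the open point gives Chi3l3 in DNBS_CEC with all 4 samples.

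Beyond the 5 genes, the complement list had 22 genes on the panel, of which Hc, Cd46, Masp2 and Mbl2 were detected in no sample. In DNBS against Healthy 17 were tested, 13 were numerically higher and 4 lower, none passed, and the median was 0.42 beside 0.12 over all genes tested. C3, the central component of the cascade, was 0.57 ± 0.50 higher, Itgam and Itgb2, the chains of complement receptor 3, were 2.07 ± 0.78 and 1.20 ± 0.48 higher, and Clu, whose product clusterin restrains the terminal complex, was 2.30 ± 0.74 higher, with adjusted p-values of 0.833, 0.324, 0.324 and 0.255 in limma. Neither Itgb2 nor Clu overlapped between DNBS and Healthy, and Clu was highest in DNBS 2, at 4.15. In DNBS_CEC against Healthy 14 were numerically higher and 3 lower, none passing, or 10 and 7 without the unstable control genes. In DNBS_Nissle against Healthy 6 were numerically higher and 11 lower, none passing, or 9 and 8 with Gapdh alone as the scale. In DNBS_Nissle against DNBS all 17 were numerically lower, with a median of -0.46 beside -0.17 over all genes tested and none passing, or 16 of 17 with Gapdh alone or the global mean.

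Read against the whole panel, 31 of 457 genes had every DNBS sample above every Healthy sample, 6.78%, and Chi3l3 was 1 of them. The share was 7.44% of 457 genes in DNBS_Nissle, where Spp1 and Chi3l3 were among them, and 2.62% of 458 genes in DNBS_CEC, with none of the 5. Ptx3 was not tested against Healthy, since no Healthy sample detected it. By limma's adjusted p below 0.05, 5 of 457 genes were called in DNBS against Healthy, 1.09%, and 11 of 457 in DNBS_Nissle against Healthy, 2.41%. Chi3l3 was among both and Spp1 among the second, which supports nothing here because the genes were picked with these comparisons in view. In DNBS_CEC against Healthy, and in the 3 comparisons among groups given DNBS, 0% were called by limma. At an unadjusted p below 0.05 there were 25 genes in DNBS_CEC against Healthy, 8 in DNBS_CEC against DNBS, 7 in DNBS_Nissle against DNBS and 21 in DNBS_CEC against DNBS_Nissle.

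The neutrophil marker S100a9 correlated with Chi3l3, Ptx3 and Spp1 at r = 0.88, r = 0.77 and r = 0.74 across the 16 samples. With C1qa and C3ar1 it did so at r = 0.05 and r = -0.05. The part of other cells in the results was not tested. Of the neutrophil markers, 9 of 16 listed were on the panel and Ela2, neutrophil elastase, was not detected. In DNBS against Healthy 6 were tested, all numerically higher with a median of 3.57, and 3 passed: S100a8 and S100a9, the chains of calprotectin, rose by 6.49 ± 1.50 and 6.23 ± 1.41 and Ltf, lactoferrin, by 4.32 ± 0.95 (adjusted p = 0.045 each, limma). In DNBS_Nissle against Healthy S100a8, S100a9 and the chemokine receptor gene Il8rb passed, at 7.81 ± 1.50, 7.48 ± 1.41 and 3.98 ± 0.86 (adjusted p = 0.012, 0.012 and 0.0175, limma). In DNBS_CEC against Healthy none of 6 passed, with S100a8 at 4.71 ± 1.49 and S100a9 at 4.32 ± 1.41. The calls in DNBS are fragile. There 0 genes of this list passed without the unstable control genes or with the global mean, and 1 under quantile normalization. In DNBS_Nissle 3 passed without the unstable control genes, 3 with the global mean and 2 under quantile normalization. In neither comparison did a gene of this list pass without Healthy 3 and DNBS_Nissle 1, the samples with most filled-in values.

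The summed neutrophil marker level, as a percentage of the control genes, was 75.0 to 5057 in DNBS, 13.3 to 750.2 in DNBS_CEC and 454 to 1232 in DNBS_Nissle, against 6.26 to 19.6 in Healthy. That of the monocyte and macrophage markers, 11 of 22 on the panel and all detected, was 117 to 266 in DNBS, 96.2 to 170 in DNBS_CEC and 86.5 to 215 in DNBS_Nissle, against 111 to 160 in Healthy. Of these 11 genes 8 were numerically higher and 3 lower in DNBS than in Healthy, none passing, with Cd14, the co-receptor for lipopolysaccharide, at 0.60 ± 0.47 (adjusted p = 0.766, limma). The sums of macrophage markers overlapped between the groups, while those of neutrophil markers in DNBS and DNBS_Nissle lay above all Healthy samples. In the highest samples the neutrophil sum was mostly S100a8 and S100a9, at levels of 4.77 and 4.47 in DNBS 3. The list did not move as a whole. Of the 6 tested, 1 was numerically lower than in Healthy in DNBS_Nissle, at -0.64, and 1 in DNBS_CEC, at -0.21. The panel holds no Cd68, Csf1r or Emr1, the genes most used to define macrophages, and no stromal marker, so the label of macrophage products rests on what is known of the genes.

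Among 7 genes typical of resident macrophages, 5 were numerically higher and 2 lower in DNBS than in Healthy, with a median of 0.39 and none passing, or 4 and 3 on the global mean scale. Aif1, a cytoskeletal protein of macrophages, stood at -0.04 ± 0.40, the haemoglobin scavenger receptor gene Cd163 at 0.65 ± 0.60, Stab1, another scavenger receptor, at 0.39 ± 0.37 and Siglec1, a sialic acid receptor, at 1.09 ± 0.62. The chemokine receptor gene Cx3cr1 was the lowest, at -0.40 ± 0.47. In DNBS_Nissle against Healthy 2 were numerically higher and 5 lower, none passing, or 3 and 4 with Gapdh alone. Cx3cr1 was again the lowest there, at -1.19 ± 0.47. In DNBS_Nissle against DNBS all 7 were numerically lower, none passing, with a median of -0.76 beside -0.17 over all genes tested.

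Genes with the most similar level across the 16 samples were sought among the 412 genes detected in all of them. For Chi3l3 they were Il33, an alarmin cytokine, at r = 0.89, S100a9 at r = 0.88 and the neutrophil chemokine gene Cxcl1 at r = 0.88. The coefficients were 0.81, 0.82 and 0.82 for the deviations from group means, so that the samples of a group went together too. For Spp1 they were Il1b at r = 0.81, the chemokine gene Ppbp at r = 0.78 and the chemokine receptor gene Ccr1 at r = 0.76, with 0.49, 0.73 and 0.56 for the deviations. Ptx3 was detected in too few samples to be ranked. It correlated with Il6, an acute phase cytokine, at r = 0.83, with S100a9 at r = 0.77 and with Chi3l3 at r = 0.75. These coefficients use the measured Ct also where it was above 28, which for Ptx3 was so in 7 samples. In the 9 samples where Ptx3 was detected, a choice made after seeing the data, they were 0.83 with Il6, 0.60 with S100a9 and 0.76 with Chi3l3.

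For C1qa the most similar were C3ar1 at r = 0.81, the growth factor gene Gdf11 at r = 0.79 and Masp1, a protease of the lectin pathway, at r = 0.75. For C3ar1 they were the chemerin receptor gene Cmklr1, C1qa and the progranulin gene Grn, each at r = 0.81. These rest in part on few samples and on the control genes that all levels share: without the 2 samples farthest from the median, C1qa and C3ar1 correlated at r = 0.54, and with the global mean as the scale at r = 0.63, C3ar1 and Grn at r = 0.38.

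The 5 genes thus followed different companions. Chi3l3 correlated with S100a9 at r = 0.88 and with Mrc1 and Aif1 at r = -0.07 and r = -0.08. Ptx3 did so at r = 0.77, r = -0.12 and r = -0.24, and Spp1 at r = 0.74, r = 0.16 and r = -0.07. C1qa correlated with S100a9 at r = 0.05 and with Mrc1 and Aif1 at r = 0.60 and r = 0.48, and C3ar1 did so at r = -0.05, r = 0.57 and r = 0.69. Of the partner chains, C1qc did so at r = 0.05, r = 0.53 and r = 0.47, but C1qb at r = 0.09, r = 0.01 and r = 0.27. Mrc1 and Aif1 are only part of the 7 resident macrophage genes, and Siglec1, Ly86 and Cx3cr1 are not given here. Cd163 set the genes apart less. It correlated with Chi3l3 at r = 0.41, Ptx3 at r = 0.33 and Spp1 at r = 0.42, against r = 0.59 for C1qa and r = 0.56 for C3ar1. Spp1 and Chi3l3 correlated at r = 0.72, or 0.39 for the deviations from group means, while Chi3l3 and C1qa correlated at r = 0.22 and Ptx3 and C1qa at r = 0.02. All coefficients are over 16 samples that include the group differences, and are descriptions. Those of Ptx3 and Chi3l3 include a Ct above 28 in 7 samples and 1 sample.

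**Figure D4:**
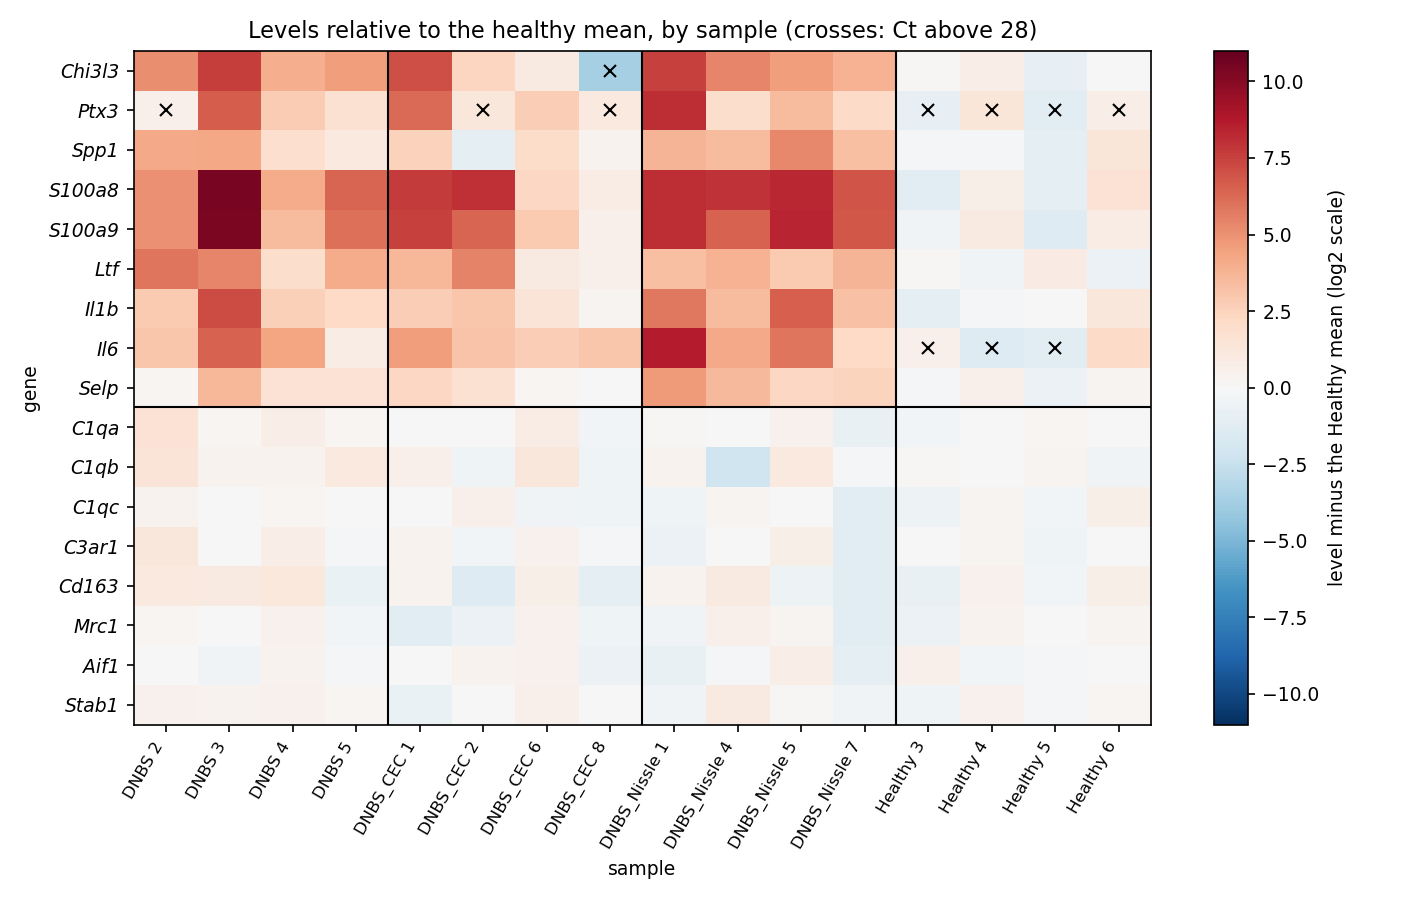
Level minus the mean of the Healthy samples (colour, log2 scale) for the 5 genes and selected companions (rows) in each of the 16 samples (columns, groups divided by vertical lines), with crosses for a Ct above 28. DNBS 3, DNBS_CEC 1 and DNBS_Nissle 1 are dark for Chi3l3, Ptx3, S100a8 and S100a9 above the horizontal line. Other columns, such as DNBS_CEC 8, are not dark for all of these genes. C1qa, C1qb, C1qc, C3ar1, Cd163, Mrc1, Aif1 and Stab1 below the line are paler. Siglec1, Cx3cr1 and Ly86 of the resident macrophage list are not shown.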

How the data were processed

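The deposited table holds raw Ct values from TaqMan OpenArray plates of the Mouse Inflammation Panel, per the labels' protocols; total RNA was extracted with the mirVana kit. The authors left these cycle values unnormalized as far as the file shows, and how the threshold was set is not given in the sources used here. Levels, differences and errors were computed here. A level is the mean Ct of 13 endogenous control genes, Gapdh among them and read by 19 assays, minus the gene's Ct. Ywhaz and Rplp2 are the unstable control genes, with an SD within groups of 3.47 and 1.01 cycles, above a limit of 0.9. Both were kept in this mean. Ct values above 28 counted as not detected. Where a gene had more than 1 assay, the mean was taken over the assays with the most detections, which took both for C3ar1 and 1 for Ptx3. Differences come from 1 limma model of the 16 samples (limma 3.58.1, R 4.3.3), with undetected values set to missing, 16 control genes left out, and genes tested where at least 3 of 4 samples of both groups detected them. P-values were adjusted by Benjamini-Hochberg within each of the 6 comparisons. The 3 comparisons with Healthy share its samples. The fitting code was tested on simulated data. The number of samples limits the precision. Promoter sequences were searched as letters (Python 3.11.15).

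The 5 genes and all gene lists were chosen with earlier results of these data known, and the list of resident macrophage genes after the names on the panel were seen. Named genes are the 5 genes, listed genes that passed or moved by more than 1 in DNBS against Healthy, some fixed markers, and the 3 genes most correlated with each member. Marker lists of T, B, mast and eosinophil, endothelial, epithelial and adipocyte cells were summed as well. Alternatives were other control genes, global mean and quantile scaling, other detection limits, single assays, samples left out, a replicate block, and fits on 2 groups.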

Additional observations from a re-analysis of the deposited data

Results flagged for a closer look

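For each member, assay and group of 4 samples, the gap between an extreme sample and its nearest neighbour was set against the range of the group. In 44 such groups, 2 exceeded the limit, and chance gives about 1 in 20. Both concern the Ptx3 assay Mm00477267_g1. In DNBS_CEC 1 its level was -3.84, with the other 3 samples of the group between -9.36 and -8.80. In DNBS_Nissle 1 it was -2.03, with the other 3 between -8.29 and -7.24. The other assay, Mm00477268_m1, put the same samples highest, at -4.24 and -2.35.

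Spp1 lay below the DNBS mean in every DNBS_CEC sample and above it in every DNBS_Nissle sample. The difference between the 2 contrasts is that of DNBS_CEC minus DNBS_Nissle, -2.97 on the log2 scale. Both contrasts use the same DNBS samples, and the difference was not tested, since Spp1 was picked with these values known.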

How the results depend on the processing

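The count of called genes in DNBS against Healthy, 5, depended on most choices. It was 1 without the unstable control genes, with a detection limit of Ct 26, Ct 30 or any Ct under 40, without values of few decimals, and with Ct values above 28 set to 28 or kept as measured, the last 2 chosen after seeing the data. It was 0 with the global mean and without the 2 samples with most filled-in values, a choice also made after seeing the data. Leaving out 1 sample gave 0 to 7 there, 0 to 14 in DNBS_Nissle against Healthy and 0 to 1 in DNBS_CEC against Healthy, and 0 to 0 in the others. The count of 11 in DNBS_Nissle against Healthy was 4 at Ct 26, 20 with the 2 groups alone and 0 without the 2 samples with most filled-in values. With the replicate number as a replicate block the counts were 2 and 0. Over 10 pairs of same-numbered samples the correlation of deviations ran from -0.47 to 0.31, with a median of -0.07 and 4 above 0.1. Pairs of unlike number were not set beside them, so whether the numbers pair the samples is not settled. The causes were not tested.

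Spp1 fell short of its main value at a limit of Ct 26, with 1.47 in DNBS and 2.59 in DNBS_Nissle against Healthy, where 3 of its 4 healthy samples are beyond that limit. Ptx3 by its g1 assay alone was 8.35, 8.22 and 9.55 above Healthy in DNBS, DNBS_CEC and DNBS_Nissle, where 2 of the 4 healthy samples did not amplify. C1qa in DNBS_CEC against Healthy turned to -0.11 without the unstable control genes.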

Other observations

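Of the other cells that a piece of mucosa can hold, the summed endothelial markers, Selp among them, were 1.37 to 15.1% of the control genes in DNBS, 1.13 to 5.39% in DNBS_CEC and 5.94 to 29.0% in DNBS_Nissle, against 0.679 to 1.57% in Healthy. The epithelial markers were 804 to 2154% in DNBS, 889 to 2653% in DNBS_CEC and 179 to 1775% in DNBS_Nissle, against 735 to 2366% in Healthy. T cell markers were 2.74 to 9.10% in DNBS, 3.44 to 15.3% in DNBS_CEC and 3.23 to 5.60% in DNBS_Nissle, against 4.71 to 8.11% in Healthy. B cell markers were 1.97 to 5.11% in DNBS, 2.59 to 5.34% in DNBS_CEC and 1.24 to 3.43% in DNBS_Nissle, against 3.14 to 5.59% in Healthy. Mast cell and eosinophil markers were 22.6 to 50.0% in DNBS, 15.8 to 63.3% in DNBS_CEC and 14.6 to 62.6% in DNBS_Nissle, against 35.6 to 63.5% in Healthy. Adipocyte markers were 257 to 597% in DNBS, 91.2 to 416% in DNBS_CEC and 120 to 207% in DNBS_Nissle, against 174 to 833% in Healthy. Of these lists, only Selp passed the limma test in any comparison, in DNBS_Nissle against Healthy. The endothelial sum was mostly Selp itself, whose level was highest in DNBS_Nissle 1, at -1.83. On the panel were 2 of 10 listed endothelial, 2 of 10 epithelial, 4 of 14 T cell and 2 of 7 B cell genes. Of the mast cell and eosinophil genes 5 of 11 were present, and of the adipocyte genes 6 of 6.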
